A study of Mus musculus with 2 samples.

Results

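The genes of the FGF receptors Fgfr1, Fgfr2 and Fgfr3 were examined as 3 windows of the mouse genome (build mm9) in which Sox6 and Sox9 were called as bound in rib chondrocytes. A peak belonged to a gene when its centre lay in that gene's window, a rule of position that uses no value of the peaks, although the genes and windows were chosen with earlier results of these data known. The windows ran on chromosome 8 from 26600000 to 26710000 for Fgfr1, on chromosome 7 from 137290000 to 137450000 for Fgfr2 and on chromosome 5 from 34040000 to 34100000 for Fgfr3. They held 60 of 79107 peaks called for Sox6 and 18 of 23865 called for Sox9, or 78 of 102972 in both lists. The Sox6 peaks came from 1 chromatin immunoprecipitation (ChIP-seq) sample of untreated wild-type ICR mice at postnatal day 1, with 1 sample of input DNA from the same kind of cells. The cells were primary chondrocytes of the rib, dissected to hold the proliferative and prehypertrophic zones without the mature hypertrophic zone. The Sox9 peaks were derived by the authors from 2 earlier samples of the same cell type, and called as the Sox6 peaks were. For the Sox9 animals, the sources used here give no strain, age or pooling. With 1 list per factor there was no replicate, and the files hold positions without scores or read counts. Depth is therefore unknown, no value carries a replicate error, and no difference between genes or factors was tested. The 95% intervals given are exact (Clopper-Pearson for shares, Poisson for densities). They cover counting error only and treat peaks as independent, which neighbouring peaks are not. No expression values were used, so the labelled cell type could not be checked against its marker genes.

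FGF receptors are membrane tyrosine kinases that bind fibroblast growth factors and signal through the MAP kinase and STAT pathways. In the growth plate FGFR3 is made by proliferating chondrocytes and restrains their division, and overactive forms of the human receptor cause achondroplasia, a form of dwarfism. FGFR1 is known from prehypertrophic and hypertrophic chondrocytes and the perichondrium, and FGFR2 from condensing mesenchyme, perichondrium and bone-forming cells. Cartilage does not form without SOX9, a transcription factor with an HMG box. SOX6 has an HMG box but no transactivation domain of its own, and works together with SOX9.

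The promoters of Fgfr2 and Fgfr3 are shown because HMG-box factors of the SOX family recognise short cores of the kind ACAAT and ACAAAG. The sequences are those of RefSeq on build GRCm38.p6, from 250 bases before to 50 bases after a transcription start. Of the 3 members, 2 matched an entry in that table. Capitals mark each match to ACAAT or ACAAAG on either strand. The Fgfr2 sequence is chr7:130266759-130267058 on the minus strand. The Fgfr3 sequence is chr5:33721474-33721773 on the plus strand and is the first of 2 Fgfr3 starts. These coordinates cannot be compared with the mm9 positions of the peaks.
Fgfr2: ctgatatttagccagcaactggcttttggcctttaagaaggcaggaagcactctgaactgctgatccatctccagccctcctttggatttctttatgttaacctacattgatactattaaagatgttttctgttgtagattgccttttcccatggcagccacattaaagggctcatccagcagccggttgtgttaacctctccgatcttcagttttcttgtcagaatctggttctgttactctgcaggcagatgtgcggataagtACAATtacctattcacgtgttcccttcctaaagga
Fgfr3: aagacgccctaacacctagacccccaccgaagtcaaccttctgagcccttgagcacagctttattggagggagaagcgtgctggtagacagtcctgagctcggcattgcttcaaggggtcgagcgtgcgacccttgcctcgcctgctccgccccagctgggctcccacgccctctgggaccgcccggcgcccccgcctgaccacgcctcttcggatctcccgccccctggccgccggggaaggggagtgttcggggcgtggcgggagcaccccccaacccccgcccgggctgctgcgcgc

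The Fgfr2 promoter held 1 ACAAT, on the gene's own strand with its first base at position 16 of the transcript, and no ACAAAG. Neither Fgfr3 promoter held a match to either core. Over 32851 promoters of the same length, 31.0% held ACAAT and 18.7% held ACAAAG on either strand. The share of promoters with either core was not computed. ACAAT was in 1 of the 3 promoters of Fgfr2 and Fgfr3, which is near its share over all promoters. No difference between the genes can be read from this 1 match. Base composition differed between the 2 genes. The Fgfr2 promoter was 43.7% G and C with 4 CG dinucleotides, whereas the Fgfr3 promoters were 69.7% and 73% G and C with 26 and 30 CG dinucleotides, against a median of 52.7% G and C over all promoters. Whether a peak of either list lies on these promoters was not examined, because the peaks and the sequences are on different builds.

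The Fgfr2 window held most of the called sites, with 41 Sox6 and 10 Sox9 peaks. The Fgfr1 window held 11 Sox6 and 6 Sox9 peaks, and the Fgfr3 window 8 Sox6 and 2 Sox9 peaks. The windows differ in length (110 kb for Fgfr1, 160 kb for Fgfr2 and 60 kb for Fgfr3), so densities are the fairer measure. Sox6 peaks numbered 100 per Mb at Fgfr1 (95% interval 49.9 to 178.9), 256.2 at Fgfr2 (183.9 to 347.6) and 133.3 at Fgfr3 (57.6 to 262.7), against 31.5 per Mb over the autosomes. Sox9 peaks numbered 54.5 per Mb at Fgfr1 (20.0 to 118.7), 62.5 at Fgfr2 (30.0 to 114.9) and 33.3 at Fgfr3 (4.04 to 120.4), against 9.56 per Mb over the autosomes. These intervals treat peaks as independent, which neighbouring peaks are not, so where they lie is a description and not a test. The intervals of all 3 genes lay above the autosomal value for Sox6. For Sox9 the Fgfr1 and Fgfr2 intervals did so, and the Fgfr3 interval, which rests on 2 peaks, included it. Among the genes, the Fgfr1 and Fgfr2 intervals did not overlap for Sox6, whereas those of Fgfr3 overlapped both. This separation was narrow and depended on the window edges. With windows widened by 25000 bp the intervals overlapped, at 66.7 to 177.8 per Mb for Fgfr1 and 152.2 to 281.3 for Fgfr2. With windows narrowed by 10000 bp they stayed apart, at 45.7 to 189.8 for Fgfr1 and 204.1 to 389.1 for Fgfr2. No order of the genes could be read for Sox9.

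The autosomal mean includes long stretches without genes, so counts in fixed tiles of the same length are given as a second measure. The 41 Sox6 peaks of Fgfr2 stood beside a median of 3 in autosomal tiles of 160 kb, with 14 at the 90th and 28 at the 99th percentile. The 11 Sox6 peaks of Fgfr1 stood beside 90th and 99th percentiles of 10 and 21 in tiles of 110 kb, and the 8 of Fgfr3 beside 6 and 13 in tiles of 60 kb. For Sox9, the 10 peaks of Fgfr2 stood beside percentiles of 5 and 11, the 6 of Fgfr1 beside 3 and 8, and the 2 of Fgfr3 beside 2 and 6. The densest tiles reached 70 Sox6 peaks at 110 kb, 92 at 160 kb and 56 at 60 kb. The windows were drawn around genes and the tiles were not, and no tile was matched for gene content. Called Sox6 peaks covered 4.45% of the Fgfr2 window, 1.60% of the Fgfr1 window and 2.40% of the Fgfr3 window, against 0.533% of the autosomes. Sox9 peaks covered 0.981%, 1.03% and 0.365% of the Fgfr2, Fgfr1 and Fgfr3 windows, against 0.185% of the autosomes.

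**Figure D1:**
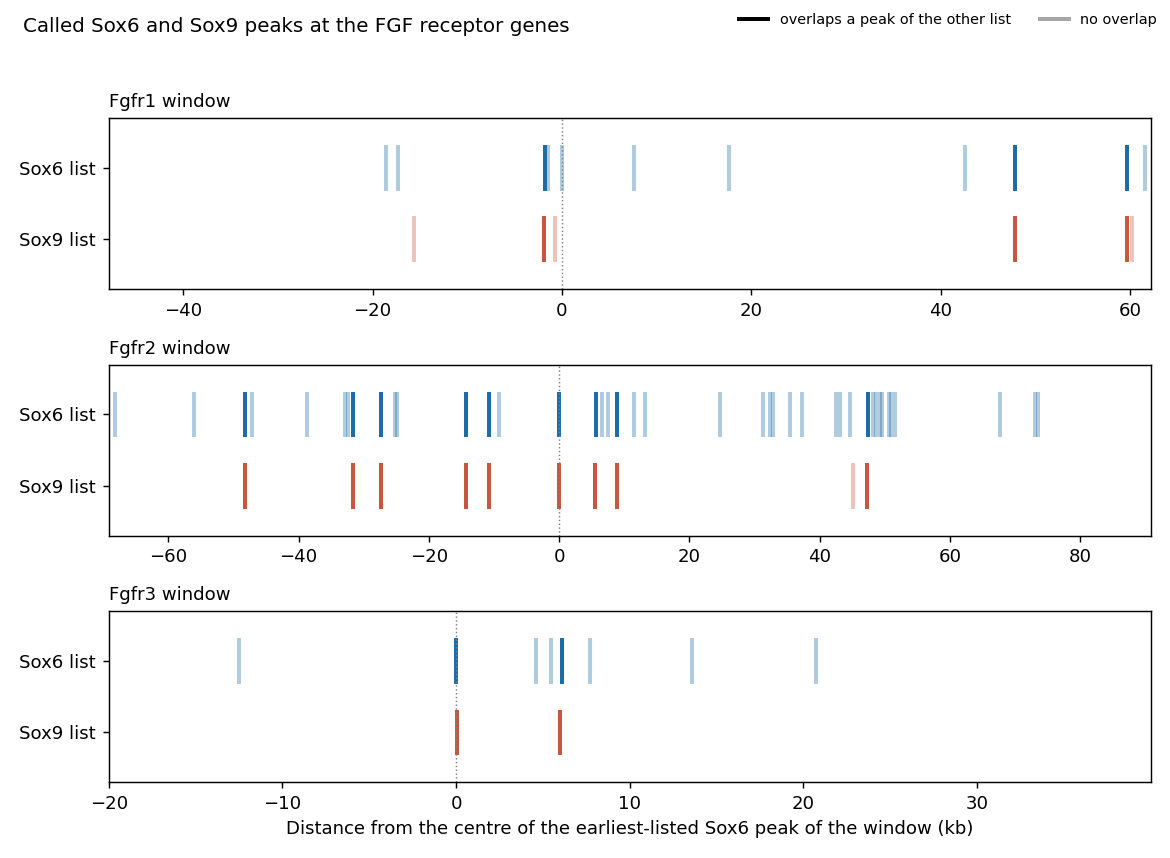
Positions of all 60 Sox6 peaks (blue, upper row) and all 18 Sox9 peaks (red, lower row) in the windows of Fgfr1, Fgfr2 and Fgfr3, as distance in kb from the centre of the Sox6 peak that stands earliest in its list; full colour marks peaks that overlap a peak of the other list and pale colour those that do not. The 41 Sox6 peaks of Fgfr2 include 9 in full colour, beside 9 of its 10 Sox9 peaks.

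Overlap between the factors at the FGF receptor genes stood at the level of the whole lists. Among the 60 Sox6 peaks, 14 met a Sox9 peak over at least 1 bp, which is 23.3% (13.4 to 36.0), where 23.1% of all Sox6 peaks did so. Of the 18 Sox9 peaks, 14 overlapped a Sox6 peak, which is 77.8% (52.4 to 93.6), where 76.7% of all Sox9 peaks did so. By gene, 3 of 11 Sox6 peaks were shared at Fgfr1 (27.3%, 6.02 to 61.0), 9 of 41 at Fgfr2 (22.0%, 10.6 to 37.6) and 2 of 8 at Fgfr3 (25%, 3.19 to 65.1). For Sox9 the shared peaks were 3 of 6 at Fgfr1 (50%, 11.8 to 88.2), 9 of 10 at Fgfr2 (90%, 55.5 to 99.7) and 2 of 2 at Fgfr3 (100%, 15.8 to 100). Every one of these intervals included the value of the whole list. The intervals of the genes also overlapped one another within each list. Counting centres within 250 bp as shared gave the same 14 and 14 peaks, where 24.4% of all Sox6 and 81.1% of all Sox9 peaks passed.

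**Figure D2:**
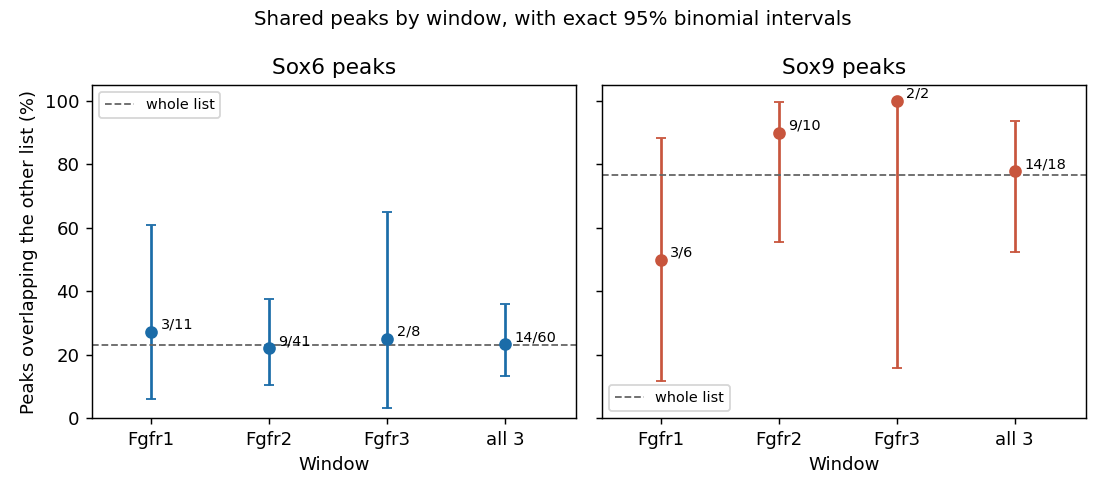
Percent of Sox6 peaks (left) and Sox9 peaks (right) that overlap a peak of the other list, by window and over all 3 windows, with exact 95% binomial intervals and the numbers of peaks beside the points; the dashed lines mark the whole lists at 23.1% and 76.7%. All intervals cross the dashed line of their list.

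At Fgfr3, the receptor that restrains chondrocyte division, both Sox9 peaks met a Sox6 peak, but only at their margins or within a much wider peak. The first Sox9 peak, from 34060051 to 34060138, was at place 14715 of its list (61.7% from the start) and overlapped a Sox6 peak from 34059960 to 34060063 by 13 bp. That Sox6 peak, at place 4544 (5.74%), was the earliest listed of the 8 at Fgfr3, and the centres were 83 bp apart. The second Sox9 peak, from 34065931 to 34066061, was at place 22649 (94.9%) and lay wholly inside a Sox6 peak of 369 bp from 34065929 to 34066297, at place 24918 (31.5%), with centres 117 bp apart. When 50% of both peaks had to overlap, neither pair counted and the share at Fgfr3 became 0% for both factors, where 13.4% of all Sox6 and 44.6% of all Sox9 peaks passed that rule. The earliest listed of the 6 Sox6 peaks without a Sox9 overlap, from 34064419 to 34064801 at place 26254 (33.2%), ended 1129 bp before the second Sox9 peak, and the other 5 stood between 52.7% and 90.6% of the list.

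At Fgfr1, a receptor of prehypertrophic and hypertrophic cells and the perichondrium, 3 of the 6 Sox9 peaks lay on a Sox6 peak and 2 more lay within 1000 bp of one. The earliest listed Sox6 peak, from 26647800 to 26647940 at place 1284 (1.62%), overlapped no Sox9 peak. It began 524 bp beyond a Sox9 peak from 26647050 to 26647275 at place 8795. It was the only one of the 8 peaks among the first 10% of the Sox6 list in all 3 windows that was not shared. Of all Sox6 peaks in that part of the list, 70.8% were shared.

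The 3 shared sites of Fgfr1 were spread over the window. The pair with the closest centres was a Sox9 peak from 26695631 to 26695796 at place 1893 (7.93%) that held the whole of a Sox6 peak from 26695651 to 26695757 at place 7461 (9.43%), with centres 9.5 bp apart. A Sox6 peak of 61 bp, from 26707517 to 26707577 at place 4000 (5.06%), lay inside a Sox9 peak from 26707425 to 26707585 at place 18608 (78.0%). The third pair, a Sox6 peak from 26645954 to 26646115 at place 43291 (54.7%) and a Sox9 peak from 26645906 to 26646080 at place 15451 (64.7%), was late in both lists, with 127 bp in common. These pairs thus included an early and a late pair, and 1 pair early for Sox6 and late for Sox9.

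Besides the Sox9 peak next to the earliest Sox6 peak, 2 Sox9 peaks of Fgfr1 had no Sox6 overlap. The peak from 26707893 to 26708153 at place 22503 (94.3%) was 315 bp from the nearest Sox6 edge, and the peak from 26632207 to 26632353 at place 8207 (34.4%) was 1381 bp from it. Within 1000 bp between edges, 5 of the 6 Sox9 peaks of Fgfr1 had a Sox6 peak (83.3%), where 90.8% of all Sox9 peaks did. From the Sox6 side 5 of 11 did so at Fgfr1, 15 of 41 at Fgfr2 and 3 of 8 at Fgfr3, where 32.3% of all Sox6 peaks did. The longest step between neighbouring Sox6 centres at Fgfr1 was 24996 bp, and the longest between Sox9 centres was 48551 bp. Other Sox6 peaks without overlap stood between 16.5% and 81.6% of the list, the earliest of them from 26629182 to 26629353 at place 13052.

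At Fgfr2, the receptor of condensing mesenchyme and perichondrium, the Sox6 peaks were strung along the window and 9 of the 10 Sox9 peaks sat on one. The median step between neighbouring Sox6 centres was 1646 bp, and 14 steps were 1000 bp or less. The Sox9 centres were a median of 5566 bp apart. Runs of Sox6 peaks with centres no more than 10000 bp apart numbered 5. The 3 long ones held 10 peaks over 31.3 kb, 10 peaks over 27.7 kb and 17 peaks over 27.1 kb, going up in coordinate, with 3, 5 and 1 shared peaks. The run of 17 Sox6 peaks lay from 137383769 to 137410844. Of all Sox6 peaks 23.1% were shared, and of those in the last 50% of the list 8.02%. The run of 17 is not a like set to the latter. It held peaks from both the first and the last 50% of the list, and its 1 shared peak stood at 3.84%. The number of runs and their sizes depend on the limit of 10000 bp. The run ending at 137334385 and the run starting at 137344785 would join under a slightly longer limit. The differences between the runs were not tested.

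The site of Fgfr2 earliest in the Sox9 list was a peak from 137327478 to 137327634 at place 50 of 23865 (0.210%). It overlapped by 112 bp a Sox6 peak from 137327523 to 137327702 at place 2807 (3.55%). The earliest Sox6 peak of the 3 windows, from 137359119 to 137359241 at place 1158 (1.46%), held the whole of a Sox9 peak of 74 bp from 137359120 to 137359193, at place 12870 (53.9%). The Sox6 peaks from 137368027 to 137368236 at place 2926 (3.70%) and from 137406487 to 137406618 at place 3039 (3.84%) met Sox9 peaks at places 5076 and 4433, from 137368018 to 137368201 and from 137406380 to 137406665. All 4 Fgfr2 peaks in the first 10% of the Sox6 list were therefore shared, where 70.8% of all Sox6 peaks in that part of the list were.

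A further 4 shared Fgfr2 sites stood between 12.9% and 18.4% of the Sox6 list. The closest pair of all was a Sox6 peak from 137310891 to 137311013 at place 12636 (16.0%) and a Sox9 peak from 137310890 to 137311006 at place 2377 (9.96%), with centres 4 bp apart. The Sox6 peak from 137344785 to 137344940 at place 10240 (12.9%) covered a Sox9 peak from 137344804 to 137344939 at place 9800 (41.1%). The remaining pairs were a Sox6 peak from 137348346 to 137348508 at place 13120 with a Sox9 peak from 137348274 to 137348452 at place 4364, and a Sox6 peak from 137364696 to 137364872 at place 14566 with a Sox9 peak from 137364607 to 137364838 at place 16598. In each of these 4 pairs more than 100 bp were held in common. The ninth shared Sox6 peak was at the far end of the list, from 137331755 to 137331915 at place 77773 (98.3%), with a Sox9 peak from 137331734 to 137331851 at place 13472 (56.5%). The only Sox9 peak of Fgfr2 without a Sox6 overlap, from 137404339 to 137404425 at place 16252 (68.1%), was 403 bp from a Sox6 peak from 137403812 to 137403935 at place 8241.

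**Figure D3:**
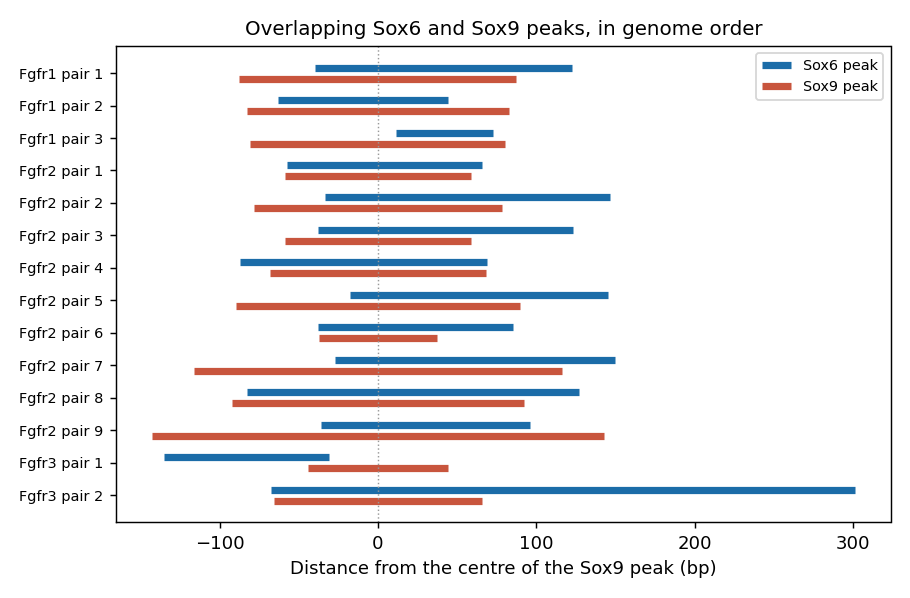
The 14 overlapping pairs of a Sox6 peak (blue) and a Sox9 peak (red) at Fgfr1, Fgfr2 and Fgfr3 in genome order, drawn to scale as distance in bp from the centre of the Sox9 peak. Centres were 4 to 117 bp apart, and both Fgfr3 pairs are more displaced than any other.

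Over the 14 pairs the centres were a median of 41.75 bp apart, with a range of 4 to 117 bp, against a median of 41 bp over the 18419 overlapping pairs of the whole lists. In 9 of the 14 pairs they were within 50 bp, where 58.1% of all pairs were. The centre of the Sox6 peak was at the higher coordinate in 11 of the 14 pairs, where 50.3% of all pairs were so placed. The median of the Sox6 minus the Sox9 centre was 35.75 bp at the FGF receptor genes and 0.5 bp over the whole lists. This displacement was noticed in the data and was not tested, and 9 of the 14 pairs share the Fgfr2 window. The median overlap at the FGF receptor genes was 114 bp. Peak widths were 34 to 470 bp for Sox6 (median 148.5 bp, against 151 bp over the list) and 74 to 286 bp for Sox9 (median 159 bp, against 183 bp).

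Shared Sox6 peaks stood earlier in their list than unshared ones at each of the 3 genes, by their medians. The order of the lists is not documented, so place is given as a description and is not known to be peak strength. The 9 shared Sox6 peaks of Fgfr2 had a median place of 12.9% and the 32 unshared ones 63.5%. The ranges overlapped, with an unshared peak at 10.4% before 5 of the shared ones and a shared peak at 98.3%. Shared and unshared medians were 9.43% and 41.4% at Fgfr1 and 18.6% and 82.4% at Fgfr3, against 19.4% and 58.6% over the whole Sox6 list. For Sox9 the direction differed between the genes. The 3 shared peaks of Fgfr1 had a median of 64.7% and the 3 unshared ones 36.9%, whereas the 9 shared peaks of Fgfr2 had a median of 21.3% and the unshared one stood at 68.1%, and Fgfr3 had no unshared peak. Over the 3 windows the medians were 47.5% and 52.5%, against 45.4% and 63.7% over the list. In the last 50% of the Sox6 list, 1 of 22 Fgfr2 peaks, 1 of 3 Fgfr1 peaks and 0 of 5 Fgfr3 peaks were shared, where 8.02% of all peaks in that part were. With the Sox6 list cut to its first 23865 peaks, 2 of 5 Fgfr1 peaks, 8 of 11 Fgfr2 peaks and the 1 remaining Fgfr3 peak were shared, where 49.9% of all Sox6 peaks left by that limit were. With the first 50% of each list, 1 of 8, 6 of 19 and 0 of 3 Sox6 peaks were shared at Fgfr1, Fgfr2 and Fgfr3, where 22.5% of all were. For Sox9 it was 1 of 3 at Fgfr1 and 6 of 6 at Fgfr2, where 74.7% of all were, and no Sox9 peak of Fgfr3 was in that part. The median place of all peaks was 36.5% at Fgfr1, 51.2% at Fgfr2 and 66.0% at Fgfr3 for Sox6, and 50.8%, 31.2% and 78.3% for Sox9.

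**Figure D4:**
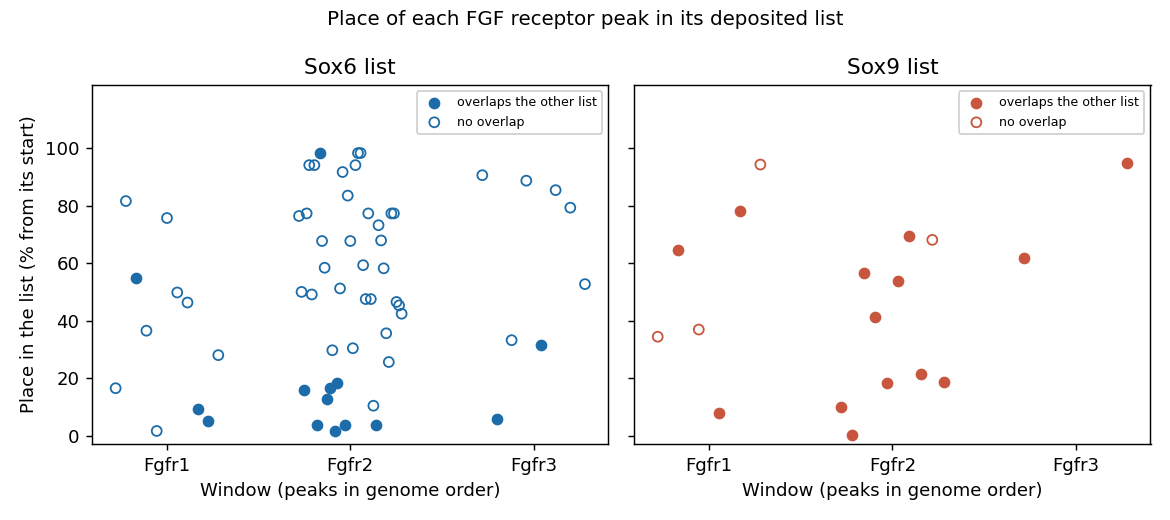
Place of each peak at Fgfr1, Fgfr2 and Fgfr3 in the Sox6 list (left) and the Sox9 list (right), in percent from the start of the list, with peaks in genome order within a gene; filled points overlap a peak of the other list and open points do not. Of the 9 filled Sox6 points at Fgfr2, 8 lie at or before 18.4%, and 1 lies at 98.3%.

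Many Fgfr2 peaks that were neighbours in the genome were also neighbours in the Sox6 list. Of its 41 Sox6 peaks, 15 had another Sox6 peak within 10 places and 160 kb, where 14.5% of all Sox6 peaks had one. Of the 22 in the last 50% of the list, 12 did, where 22.7% of all Sox6 peaks in that part had one. Examples were places 61151, 61152, 61153 and 61158, and places 77780 and 77782. The number of such neighbours also grows with the number of peaks within reach, and its part in this count was not tested. At Fgfr1, 1 of 11 Sox6 peaks had such a neighbour, and at Fgfr3 0 of 8. No Sox9 peak of the 3 windows had one, where 8.68% of all Sox9 peaks did.

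The window edges left out peaks close by. Below the lower edge of the Fgfr3 window by 4.88 kb lay a Sox9 peak at place 245 (1.03%), from 34035045 to 34035199, which overlapped a Sox6 peak. The first Sox9 peak inside that edge was 20.1 kb in, at place 14715. At Fgfr1 the nearest Sox6 and Sox9 centres beyond the upper edge were 2.03 kb and 2.53 kb outside it, and the nearest inside were 0.593 kb and 1.98 kb from it. Below the lower edge of the Fgfr1 window the nearest Sox6 and Sox9 centres were 5.59 kb and 20.6 kb outside, against 29.3 kb and 32.3 kb inside. At Fgfr2 the nearest Sox6 centre was 2.93 kb outside the lower edge and 0.997 kb inside it, and at the upper edge the distances were 26.2 kb outside and 17.2 kb inside. At the upper edge of Fgfr3 they were 25.2 kb outside and 19.3 kb inside for Sox6, and 24.8 kb and 34.0 kb for Sox9. The Sox9 centres nearest to the Fgfr2 window were 72.2 kb below it and 149.5 kb above it. The median autosomal tile of 160 kb held 0 Sox9 peaks, so stretches of this length without one are common in the list. In the GRCm38 gene table the nearest annotated protein-coding genes are Gm39147 and Letm2 on either side of Fgfr1, Wdr11 and Ate1 on either side of Fgfr2, and Tacc3 and Letm1 on either side of Fgfr3. Peaks in the windows could not be assigned to an exon, an intron or a neighbouring gene, and no target of any peak is known from these files.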

How the data were processed

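Sox6 ChIP-seq and input DNA were labelled for 1 sample each. Bowtie (no version) and build mm9 come from the submitters' processing notes; for the peak caller and its threshold the entry is: not given in the sources used here, beyond a mark FDR in the names of both lists that no source explains. The Sox9 list, per the series' design text, re-analyses 2 earlier samples, called as for Sox6; its build was taken as mm9. Each deposited list has 3 columns (chromosome, start and end of a peak in bp), with no score, count or p-value. The input DNA was not analysed here. Starts were read as BED starts and are printed counted from 1.

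Peaks were assigned to a window by their centre, with Python 3.11.15, pandas 2.3.3 and scipy 1.17.1. Peaks were shared when they overlapped by at least 1 bp. The overlap rules were checked on made-up lists with known overlaps. Autosomal densities used the length up to the last Sox6 peak of each chromosome. The members, windows and rules were chosen with earlier results of these data known. Peaks named by position are all Sox9 peaks, all shared Sox6 peaks, the 3 earliest listed Sox6 peaks of each window and, by their distance, those nearest to the window edges; others named were chosen after their values were seen. Alternatives changed the overlap rule, the part of the lists, the window edges and the ranking. Other genes of the FGF pathway were not counted, since no mm9 annotation was used.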

Additional observations from a re-analysis of the deposited data

How the results depend on the processing

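Of 80 values recomputed under an alternative, 60 stayed close to the reported one, within its 95% interval for shares and densities, within 1.5 times for counts of peaks and within 1 SD over the window's peaks for median places. All 12 recomputed densities were among them, but with windows widened by 25000 bp the Sox6 intervals of Fgfr1 (66.7 to 177.8 per Mb) and Fgfr2 (152.2 to 281.3) overlapped. With windows narrowed by 10000 bp those of Fgfr1 (45.7 to 189.8) and Fgfr2 (204.1 to 389.1) did not. With few peaks per window the intervals are wide, so a value within them says little about stability. The Sox9 share at Fgfr3, with an interval of 15.8 to 100%, counted as close at 50% against 100%. Using the first 50% of each list gave 19 Sox6 peaks at Fgfr2 and 3 at Fgfr3, and 3, 6 and 0 Sox9 peaks at Fgfr1, Fgfr2 and Fgfr3, with 0% of Sox6 peaks shared at Fgfr3 (22.5% of all in that part) and 100% of Sox9 peaks shared at Fgfr2 (74.7% of all). With the Sox6 list cut to the length of the Sox9 list, 5, 11 and 1 Sox6 peaks remained at Fgfr1, Fgfr2 and Fgfr3, of which 72.7% were shared at Fgfr2 and 100% at Fgfr3, where 49.9% of all Sox6 peaks in the shortened list were; fewer peaks are used by construction. With windows widened by 25000 bp, Fgfr1 held 18 Sox6 and 10 Sox9 peaks, and Fgfr3 15 and 5. With 50% of both peaks required, Fgfr3 had 0% shared for Sox6 and 0% for Sox9, and with a gap of up to 1000 bp 100% of Fgfr2 Sox9 peaks were shared. Ranking by width, with the widest peaks first, put the median Sox9 place at Fgfr2 at 71.4%. Width is a different quantity from place in the list. The Sox9 peaks of Fgfr2 had a median width of 146.5 bp, against 183 bp over the list. Why they were narrower was not tested. No paired analysis was possible because there is 1 list per factor. Unknown depth limits what the absence of a peak can say.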

Other observations

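The Fgfr3 window held the 2 late-listed Sox9 peaks described above, although a Sox9 peak at place 245 lay 4.88 kb below its lower edge. With the window widened by 25000 bp on both sides its Sox9 density was 45.5 per Mb (14.8 to 106.1, 5 peaks). In the window as set it was 33.3 per Mb (4.04 to 120.4, 2 peaks). Narrowed by 10000 bp, the window held the same 2 peaks at 50 per Mb (6.06 to 180.6), so no direction can be read. The Fgfr2 window widened by 25000 bp held 47.6 Sox9 peaks per Mb and 209.5 Sox6 peaks per Mb, both lower than in the window as set.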
